A study of Mus musculus with 12 samples.

Results

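The MHC class I presentation genes described here are 10 of the 17955 genes in the deposited expression table, taken by their symbols. They encode the classical class I heavy chains (H2-K1 and H2-D1), their shared light chain (B2m), the peptide transporter and its partner (Tap1, Tap2 and Tapbp), the class I transcriptional activator Nlrc5, and the 3 inducible proteasome subunits (Psmb8, Psmb9 and Psmb10). All 10 were in the table, and all 10 had enough reads to be among the 12903 genes tested. RNA came from regulatory T cells (Tregs) of C57BL/6 mice aged 7 weeks, isolated out of spleen plus lymph node by sorting for CD4, CD25 and the YFP reporter. The 4 groups of 3 mice crossed a genotype with a treatment. Wild-type (WT) mice were Foxp3YFP-cre TKT+/+, and knockout (cKO) mice were Foxp3YFP-cre TKTfl/fl, so both genotypes carried the Cre recombinase that is expressed from the Foxp3 locus, and Tkt, which encodes the pentose phosphate pathway enzyme transketolase, was deleted only in Foxp3-expressing cells. Mice drank vehicle or DMαKG, dimethyl α-ketoglutarate, a cell-permeable form of the metabolite α-ketoglutarate, in their water from their mothers' pregnancy until adulthood. The labels number the vehicle mice 2 to 4 and the DMαKG mice 1 to 3.

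MHC class I molecules show short peptides from a cell's own proteins to CD8 T cells. The proteasome cuts proteins into peptides, the TAP1-TAP2 transporter moves the peptides into the endoplasmic reticulum, tapasin (encoded by Tapbp) holds empty class I molecules beside the transporter, and the loaded heavy chain travels to the cell surface with β2-microglobulin. Interferon raises many of these genes, partly through NLRC5 acting at a shared promoter module, and replaces the constitutive catalytic subunits of the proteasome with PSMB8, PSMB9 and PSMB10.

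Of the 10 genes, 7 lay on chromosome 17 in the MHC region (RefSeq, GRCm38.p6, the same build as mm10). H2-K1 lies at chr17:33996012-34000619 on the minus strand, Tapbp at chr17:33919478-33929290 and H2-D1 at chr17:35263094-35267497. Psmb9 (chr17:34182030-34187330, minus strand), Tap1 (chr17:34187556-34197225), Psmb8 (chr17:34198195-34201454) and Tap2 (chr17:34204479-34216321) stand side by side within 34292 bases. Psmb9 and Tap1 are transcribed away from each other from starts 225 bases apart, so they share an intervening promoter. B2m lies at chr2:122147687-122153082, Nlrc5 at chr8:94434335-94527272 and Psmb10 at chr8:105935728-105938392. All are protein coding.

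Promoter windows of 300 bases (250 before and 50 after the start, RefSeq, GRCm38.p6) were matched for 8 of the 10 genes, all but Tap2 and Nlrc5. The H2-K1 window lies inside the minus-strand gene span given above, so its start is not the outer end of that span (34000619). Both strands were searched for the interferon-stimulated response element core GAAANNGAA, the STAT site TTCNNNGAA, the NF-κB site GGGNNTTCC, the Y box ATTGG and the X2 box TGACG. The last 2 belong to the module through which NLRC5 acts. Windows are printed for the heavy chains, their light chain and the promoter between Tap1 and Psmb9, since these 5 genes were the ones whose windows held both the Y box and the X2 box. Capitals mark matches to any of the 5 motifs on either strand, and no 2 matches overlapped. The windows, each 5′ to 3′ on the gene's own strand, are H2-K1 (chr17:34000298-34000597, minus), H2-D1 (chr17:35262844-35263143, plus), B2m (chr2:122147437-122147736, plus) and Tap1 (chr17:34187306-34187605, plus).
H2-K1: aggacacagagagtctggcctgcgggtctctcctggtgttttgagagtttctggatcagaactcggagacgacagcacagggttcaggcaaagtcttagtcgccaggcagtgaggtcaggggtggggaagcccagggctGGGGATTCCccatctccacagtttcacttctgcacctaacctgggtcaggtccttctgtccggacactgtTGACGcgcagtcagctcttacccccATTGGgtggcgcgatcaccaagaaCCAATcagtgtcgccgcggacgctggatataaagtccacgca
H2-D1: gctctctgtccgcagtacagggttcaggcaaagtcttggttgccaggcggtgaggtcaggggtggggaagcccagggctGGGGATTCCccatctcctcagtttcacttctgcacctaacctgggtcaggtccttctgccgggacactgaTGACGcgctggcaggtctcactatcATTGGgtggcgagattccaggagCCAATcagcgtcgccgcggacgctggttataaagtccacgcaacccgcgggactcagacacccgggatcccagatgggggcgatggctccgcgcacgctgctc
B2m: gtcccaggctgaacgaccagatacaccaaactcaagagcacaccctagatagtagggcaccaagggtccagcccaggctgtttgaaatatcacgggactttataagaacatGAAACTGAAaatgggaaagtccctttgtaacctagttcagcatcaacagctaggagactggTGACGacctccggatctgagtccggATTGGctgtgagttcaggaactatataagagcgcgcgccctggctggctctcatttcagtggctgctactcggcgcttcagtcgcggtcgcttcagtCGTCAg
Tap1: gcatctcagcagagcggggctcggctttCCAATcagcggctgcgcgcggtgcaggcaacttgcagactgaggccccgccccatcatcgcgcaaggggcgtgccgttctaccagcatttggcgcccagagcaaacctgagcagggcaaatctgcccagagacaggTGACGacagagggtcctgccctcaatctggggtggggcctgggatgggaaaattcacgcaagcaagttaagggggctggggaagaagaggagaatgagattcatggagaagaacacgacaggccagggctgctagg
The Psmb9 window shared 275 of its bases with the Tap1 window, read from the other strand. The Y box was found in 6 of the 8 windows (37.4% of 32817 promoters of the same length), the X2 box in 5 (20.8%), and both in 5 (7.71%). The NF-κB site was found in H2-K1 and H2-D1 (5.82% of promoters), the response element core only in B2m (8.55%) and the STAT site only in Psmb8 (8.29%). These matches describe the letters in the windows and do not show binding. Only the exact patterns given were searched. Other forms of these elements were not, so a window without a match, such as those of the heavy chains for the response element core, can still hold one.

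Libraries held between 1.57e+07 and 1.89e+07 estimated counts, and log2 differences between groups had a median SE of 0.18. Tkt itself stood at 102 to 194 CPM (counts scaled for library size) in the 6 WT libraries and at 26.2 to 41.8 CPM in the 6 cKO libraries, which did not overlap. The markers of the labelled cell type were present: Foxp3 stood at 280 to 545 CPM, and the summed level of the 7 Treg and CD4 T cell markers at 3830 to 6470 CPM. Summed B cell markers (8 genes) reached at most 43.0 CPM, CD8 T and NK cell markers (8 genes) 52.7 CPM, and erythroid markers (7 of 8 in the table) 25.0 CPM. The 13 macrophage, monocyte and granulocyte markers summed to 43.1 to 214 CPM, and the 9 dendritic cell markers to 6.34 to 42.0 CPM. The Y-linked gene Ddx3y was below 0.6 CPM in 3 libraries (WT vehicle 3, cKO DMαKG 1 and cKO DMαKG 3), at 22.6 CPM in WT DMαKG 2 and at 109 CPM or more in the other 8, and the part of this split in the results was not tested beyond the covariate named below. On the first principal component of all tested genes (29.0% of the variance), WT vehicle 4, cKO vehicle 4 and WT DMαKG 3 lay together at one end.

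Per transcript length, in TPM (transcript abundance with 1 fixed total for all libraries), the class I chains were among the most abundant transcripts of these Tregs. Mean levels over the 12 libraries were 5800 TPM for B2m, which was the 8th most abundant gene of the table, 5500 TPM for H2-K1 (10th) and 3210 TPM for H2-D1 (42nd). The processing and loading genes stood an order of magnitude lower: Psmb8 500 TPM, Tap1 295, Tapbp 294, Tap2 283, Psmb9 243, Psmb10 167 and Nlrc5 157 TPM. Neighbours in that order overlapped between libraries from B2m to H2-K1 and from Tap1 to Nlrc5, while H2-D1 (2540 to 3810 TPM) lay below every H2-K1 value (4570 to 6270 TPM) and above every Psmb8 value (412 to 615 TPM). Together the 10 genes held 1.42% to 1.83% of all TPM. The ratio of H2-K1 to H2-D1 ran from 1.55 to 1.96, and the ratio of B2m to H2-K1 from 0.867 to 1.51. B2m amounted to 0.332 to 0.624 of all MHC-linked class I chains together, with the highest value in cKO DMαKG 3.

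The comparison of cKO with WT on vehicle asks whether class I transcripts differ between Tregs with and without the Tkt deletion. In this comparison 9 of the 10 genes had a higher mean in cKO Tregs, with a median log2 fold change of 0.24 against 0.01 over all tested genes, of which 51.6% lay above 0. None of the 10 passed the adjusted threshold of 0.05 with edgeR or with DESeq2, where edgeR called 0.0233% of all genes (3 of 12903). The fold differences were largest for 2 inducible proteasome subunits, Psmb9 (1.32-fold) and Psmb8 (1.30-fold), and for Tap1 (1.31-fold). These 3 genes reached an unadjusted edgeR p below 0.05 (3 of 10, against 3.60% of all genes in the higher direction).

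**Figure D1:**
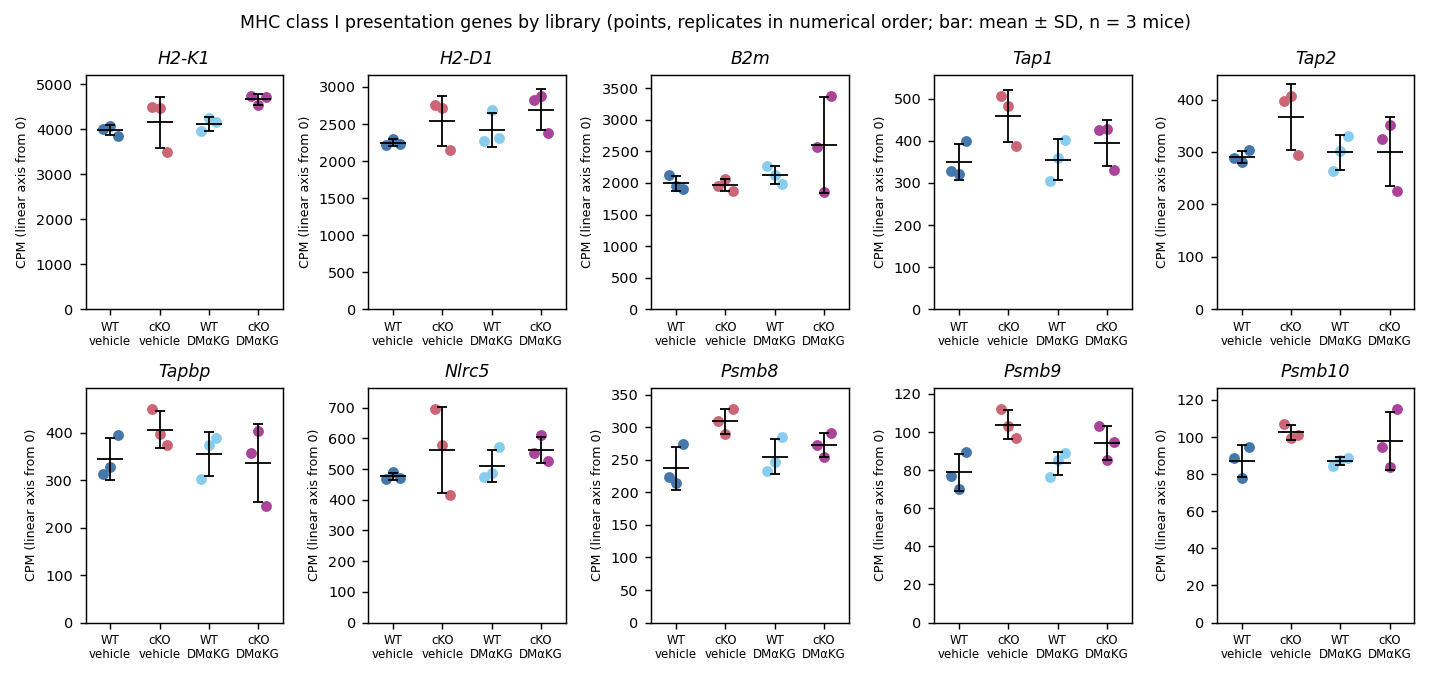
Level of each class I gene in CPM (vertical axis, linear from 0) in the 12 libraries, grouped by genotype and treatment (horizontal axis); points are single mice and the bars are the mean ± SD of 3 mice. All 3 cKO vehicle points lie above all 3 WT vehicle points for Psmb8, Psmb9 and Psmb10, and B2m has 1 high point at 3380 CPM in the cKO DMαKG group.

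Psmb9, the inducible subunit that replaces Psmb6, stood at 77.0, 70.1 and 89.5 CPM in WT vehicle 2, 3 and 4, and at 112, 103 and 96.8 CPM in cKO vehicle 2, 3 and 4. Every cKO library lay above every WT library, with the nearest pair at 96.8 and 89.5 CPM. The difference was 0.40 on the log2 scale (SE 0.12, 95% interval 0.14 to 0.65, 1.32-fold), and its adjusted p was 0.381 in edgeR (0.175 to 1 over the alternatives).
Psmb8, which replaces Psmb5, stood at 223, 214 and 275 CPM in WT and at 310, 290 and 328 CPM in cKO. The groups were again apart, and the log2 difference was 0.38 (SE 0.12, edgeR adjusted p = 0.435). Psmb10, which replaces Psmb7, stood at 88.5, 77.8 and 94.6 CPM in WT and at 107, 99.4 and 101 CPM in cKO. Its libraries were apart too, with a log2 difference of 0.24 (SE 0.12, edgeR adjusted p = 0.743). For these 3 of the 10 genes all cKO libraries lay above all WT libraries, against 8.29% of all genes.

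The transporter subunits, which carry peptides into the endoplasmic reticulum, overlapped between the groups. Tap1 stood at 328, 322 and 400 CPM in WT vehicle 2, 3 and 4 and at 507, 483 and 389 CPM in cKO vehicle 2, 3 and 4. In the other subunit, Tap2, the values were 289, 281 and 303 CPM in WT and 398, 407 and 294 CPM in cKO. In both genes cKO mice 2 and 3 were high, while cKO mouse 4 lay within the WT range. The log2 differences were 0.39 for Tap1 (SE 0.16, edgeR adjusted p = 0.578) and 0.33 for Tap2 (SE 0.17, edgeR adjusted p = 0.750). Tapbp, which encodes the chaperone tapasin, stood at 313, 328 and 395 CPM in WT and at 450, 397 and 374 CPM in cKO, a difference of 0.24 (SE 0.18, edgeR adjusted p = 0.881).

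The heavy chains, the ligands of the CD8 T cell receptor, showed the same split among the cKO mice. H2-K1 stood at 4010, 4070 and 3850 CPM in WT and at 4490, 4480 and 3500 CPM in cKO vehicle 2, 3 and 4. H2-D1 stood at 2220, 2300 and 2230 CPM in WT and at 2760, 2710 and 2150 CPM in cKO. Cells of cKO mice 2 and 3 lay above all WT values, and cKO mouse 4 was the lowest of all 12 libraries for both genes. The log2 differences were 0.06 for H2-K1 (SE 0.13, edgeR adjusted p = 0.972) and 0.17 for H2-D1 (SE 0.14, edgeR adjusted p = 0.896). Nlrc5, the activator of class I promoters, had the same order, with 469, 489 and 471 CPM in WT and 695, 579 and 416 CPM in cKO, a difference of 0.24 (SE 0.16, edgeR adjusted p = 0.850) that was 0.06 without cKO vehicle 2 and 0.42 without cKO vehicle 4. B2m was the 1 gene with a lower mean in cKO: 2120, 1960 and 1900 CPM in WT and 1960, 2060 and 1870 CPM in cKO, a log2 difference of -0.02 whose 95% interval ran from -0.41 to 0.37. That sign was positive when WT vehicle 2 or cKO vehicle 4 was left out and with a covariate of Y-linked expression.

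Without the 3 libraries at the end of the first component, among them WT vehicle 4 and cKO vehicle 4, the median of the 10 log2 differences was 0.40 in place of 0.24, and still none of the 10 passed. Some summed markers of other cells were lower in cKO in this comparison, though edgeR called none of these markers. Dendritic cell markers summed to 11.7 to 42.0 CPM in WT and 6.34 to 10.9 CPM in cKO vehicle mice. Siglech alone gave 21.4 of the 42.0 CPM, in WT vehicle 2. The CD8 T and NK cell markers stood at 41.1 to 52.7 CPM in WT and 36.0 to 37.5 CPM in cKO. The macrophage, monocyte and granulocyte markers overlapped, at 67.0 to 169 and 43.1 to 100 CPM. Dendritic cells and macrophages also express class I genes. In bulk RNA of a sorted population, fewer cells of a type and less RNA per cell cannot be told apart. The part of these markers in the class I values was not tested.

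With both genotypes on DMαKG, 9 of the 10 genes again had a higher mean in cKO Tregs, and the median log2 fold change was 0.15 against 0.00 over all genes, of which 50% lay above 0. None of the 10 passed in edgeR (0.0698% of all genes called) or DESeq2, and none had an unadjusted p below 0.05 (5.56% of all genes did, in the higher direction). H2-K1 was the 1 gene whose libraries were apart (7.92% of all genes), at 3950, 4240 and 4170 CPM in WT DMαKG 1, 2 and 3 and at 4740, 4530 and 4710 CPM in cKO DMαKG 1, 2 and 3. Its log2 difference was 0.18 (SE 0.13, 95% interval -0.10 to 0.46, edgeR adjusted p = 0.661), so the spread of the fit still covered 0. H2-D1 overlapped, at 2270, 2690 and 2310 CPM in WT and 2820, 2880 and 2380 CPM in cKO, with a difference of 0.15 (SE 0.14).

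The proteasome subunits that were apart on vehicle overlapped on DMαKG. Psmb9 stood at 76.6, 85.1 and 88.8 CPM in WT and 103, 85.3 and 94.6 CPM in cKO (log2 difference 0.17, SE 0.12, edgeR adjusted p = 0.640). Psmb8 stood at 233, 247 and 285 CPM in WT and 273, 254 and 291 CPM in cKO (0.10, SE 0.12, edgeR adjusted p = 0.815). In Psmb10 the values were 84.4, 87.5 and 88.6 CPM in WT and 94.6, 84.0 and 115 CPM in cKO (0.17, SE 0.12, edgeR adjusted p = 0.649). With each library's trend on transcript length removed, the Psmb8 difference was 0.01 and the Psmb9 difference 0.05.

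Among the loading genes the cKO DMαKG mice split. Tap1 stood at 305, 360 and 402 CPM in WT DMαKG and 425, 429 and 332 CPM in cKO DMαKG (log2 difference 0.15, SE 0.16). Tap2 stood at 264, 302 and 331 CPM in WT and 324, 352 and 226 CPM in cKO (0.01, SE 0.17), and Tapbp at 303, 374 and 389 CPM in WT and 357, 405 and 245 CPM in cKO (-0.08, SE 0.18). For Tap2 and Tapbp the library cKO DMαKG 3 was the lowest of all 12. Without it the Tapbp difference was 0.11 and the Tap2 difference 0.18. For Nlrc5 the values were 473, 486 and 571 CPM in WT and 553, 610 and 527 CPM in cKO (0.14, SE 0.16).

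B2m showed the widest spread of any member inside a group. It stood at 2270, 2120 and 1980 CPM in WT DMαKG and at 2570, 1860 and 3380 CPM in cKO DMαKG 1, 2 and 3, so that the lowest and the highest of all 12 libraries were both cKO DMαKG mice. The log2 difference between the genotypes on DMαKG was 0.29 (SE 0.18, edgeR adjusted p = 0.601). It was 0.07 without cKO DMαKG 3 and 0.51 without cKO DMαKG 2.

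DMαKG against vehicle asks whether these transcripts differ with the metabolite within a genotype, and each of these comparisons shares its libraries with the genotype comparisons above. In WT Tregs, 9 of the 10 genes had a slightly higher mean on DMαKG, with a median log2 fold change of 0.07 against -0.00 over all genes (49.8% above 0). Differences ran from -0.00 for Psmb10 to 0.11 for H2-D1, and no gene's libraries were apart (4.59% of all genes were, in the higher direction). None of the 10 had an unadjusted p below 0.05 (1.05% of all genes in the higher direction), none passed in DESeq2, and edgeR called 0% of all genes (DESeq2 called 2, and 352 had an unadjusted edgeR p below 0.05). The 95% intervals of the 10 differences all lay between -0.35 and 0.48.

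In cKO Tregs 4 genes had a higher and 6 a lower mean on DMαKG, with a median of -0.10 against 0.00 over all genes (50.4% above 0), and none of the 10 passed in edgeR or DESeq2. Of all genes edgeR called 0% and DESeq2 389, and 2247 had an unadjusted edgeR p below 0.05. B2m had the largest difference and was the 1 gene with an unadjusted p below 0.05 (7.49% of all genes in the higher direction): 0.41 on the log2 scale (SE 0.18, edgeR adjusted p = 0.276, 0.129 to 0.939 over the alternatives). The B2m difference was 0.18 without cKO DMαKG 3 and 0.62 without cKO DMαKG 2. H2-K1 was apart, with every DMαKG library (4530 to 4740 CPM) above every vehicle library (3500 to 4490 CPM), against 8.91% of all genes. Its log2 difference was 0.17 (SE 0.13, edgeR adjusted p = 0.498), and 0.06 without cKO vehicle 4. The transporter and chaperone genes had the most negative values: Tap2 -0.28 (SE 0.17), Tapbp -0.28 (SE 0.18) and Tap1 -0.22 (SE 0.16). Psmb8 stood at -0.18 (SE 0.12), Psmb9 at -0.14 (SE 0.12), Psmb10 at -0.06 (SE 0.12) and Nlrc5 at 0.00 (SE 0.16). Without cKO DMαKG 3, Tap2 stood at -0.11, Tapbp at -0.09 and Tap1 at -0.10, and Psmb8 (-0.23) and Psmb10 (-0.19) were the most negative. H2-D1 stood at 0.09 (SE 0.14), and at -0.02 without cKO vehicle 4.

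The test of the difference between these responses, the interaction of genotype and DMαKG, called none of the 10 in edgeR or DESeq2 (of all genes edgeR called 0% and DESeq2 1, with 477 at an unadjusted edgeR p below 0.05). None of the 10 had an unadjusted p below 0.05, as 2.40% of all genes had in the higher direction. The interaction was negative for 8 of the 10, with a median of -0.16 against -0.01 over all genes (48.7% above 0), and its lowest values were -0.32 for Tap2 (SE 0.24), -0.32 for Tapbp (SE 0.25) and -0.28 for Psmb8 (SE 0.17). B2m had the highest, at 0.31 (SE 0.26). Without cKO DMαKG 3 the interaction was 0.09 for B2m, -0.15 for Tap2 and -0.13 for Tapbp. Without cKO DMαKG 2 it was 0.53 for B2m and -0.46 for Tapbp.

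**Figure D2:**
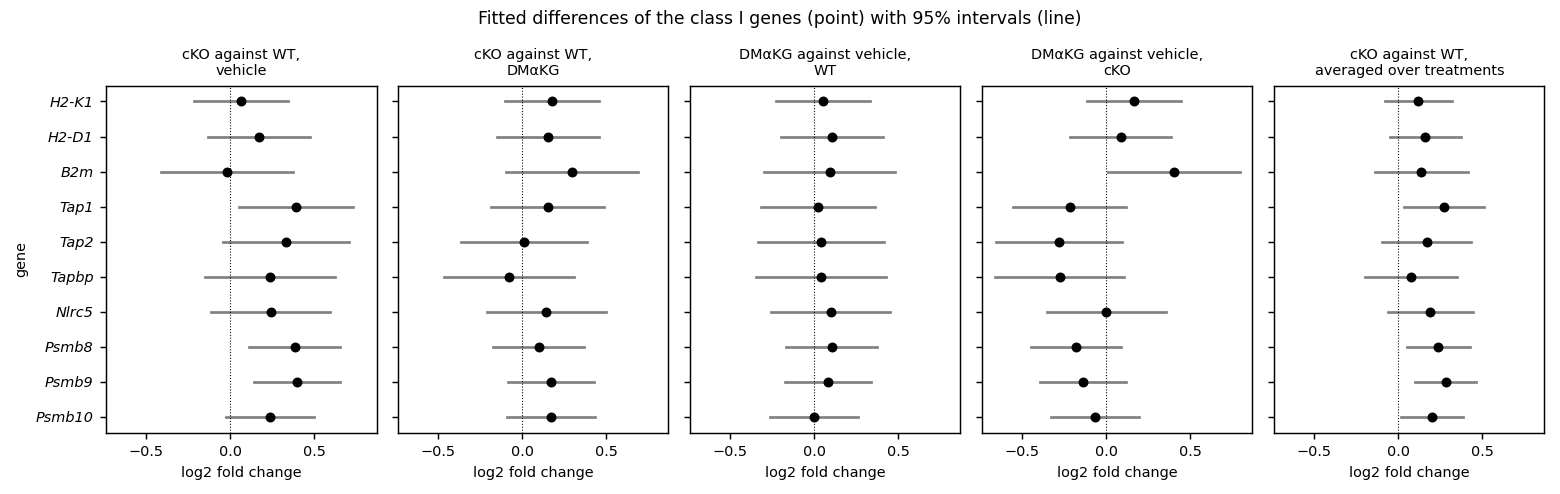
Fitted log2 fold change of each class I gene (points) with its 95% interval (lines) in the 4 pairwise comparisons and in cKO against WT averaged over the treatments, each panel on the same horizontal axis. Averaged over treatments, all 10 points lie above 0, and the intervals of Tap1, Psmb8, Psmb9 and Psmb10 exclude 0 before adjustment.

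Averaged over both treatments, with 6 cKO and 6 WT mice, all 10 genes had a higher mean in cKO Tregs, with a median log2 fold change of 0.18 against -0.01 over all genes, of which 48.9% lay above 0. The sign was positive for all 10 genes under each of the 20 alternatives. None of the 10 passed in edgeR, where 0.977% of all genes were called (126 of 12903), and none passed in DESeq2. Unadjusted p-values were below 0.05 for 4 of the 10, against 6.86% of all genes in the higher direction. These were Psmb9 at 0.28 (SE 0.08, edgeR adjusted p = 0.150), Psmb8 at 0.24 (SE 0.09, edgeR adjusted p = 0.261), Tap1 at 0.27 (SE 0.11, edgeR adjusted p = 0.315) and Psmb10 at 0.20 (SE 0.08, edgeR adjusted p = 0.336). All 3 inducible proteasome subunits and the transporter subunit that shares a promoter with one of them were the members farthest from 0 relative to their error. The adjusted p of Psmb9 ran from 0.0618 (DESeq2) to 0.520 (length trend removed, when its log2 difference was 0.19) over the alternatives. The remaining 6 ranged from 0.08 for Tapbp to 0.19 for Nlrc5. DMαKG against vehicle averaged over the genotypes gave 4 higher and 6 lower genes (50.4% of all genes lay above 0), a median of -0.03, and no call among the 10 in edgeR (0.00775% of all genes) or DESeq2, with no unadjusted p below 0.05 (6.36% of all genes in the higher direction).

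Among markers of other cells, edgeR called 1 in cKO against WT averaged over treatments. DESeq2 called the same gene plus 1 dendritic cell marker, lower in cKO, and on vehicle 2 dendritic cell markers, lower in cKO. Nkg7, a granule gene of CD8 T and NK cells, was lower in cKO (log2 -0.78, SE 0.16, edgeR adjusted p = 0.0436, 7.37e-04 to 0.140 over the alternatives, of which 7 of 20 kept the call). The call was lost with the replicate block, with the Y-linked covariate, without the 3 libraries at the end of the first component, and without any 1 library other than WT vehicle 3 and 4. Cd8a, which defines CD8 T cells, stood at 7.17 CPM at most, and Ncr1, which defines NK cells, was at 0 in 9 of the 12 libraries. Other markers of this list were higher: Cd8b1, the other CD8 chain, stood at 11.4 to 17.2 CPM. Klrb1c reached 5.91 CPM and Prf1 5.04 CPM, so the low values of Cd8a and Ncr1 do not show that these cells were absent. On DMαKG the 8 markers summed to 46.5 to 49.2 CPM in WT and 38.1 to 49.0 CPM in cKO mice. Their part in the class I values was not tested.

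Each inducible subunit competes for its place in the proteasome core with a constitutive one, so their share of the pair's TPM describes how far the transcripts favour the immunoproteasome. Psmb8 made up 72.5% to 79.9% of Psmb8 plus Psmb5 in the 12 libraries, Psmb9 54.8% to 68.7% of Psmb9 plus Psmb6, and Psmb10 36.8% to 51.4% of Psmb10 plus Psmb7. Psmb8 and Psmb9 transcripts outnumbered their partners in all 12 libraries, and Psmb10 stood below Psmb7 in all but cKO vehicle 2 (51.4%). By group the Psmb8 share was 74.1% ± 1.49 in WT vehicle, 77.4% ± 4.23 in cKO vehicle, 76.2% ± 2.90 in WT DMαKG and 75.6% ± 1.28 in cKO DMαKG (SD, n = 3). The cKO vehicle mice again split, with 79.8% and 79.9% in mice 2 and 3 and 72.5% in mouse 4. Within strata of the other factor, a two-sided exact permutation test over 400 arrangements gave p = 0.380 for the genotype difference of 1.40 percentage points in the Psmb8 share, which was 0.718 without WT DMαKG 1 and 2.62 without cKO vehicle 4. The 6 such tests, over 3 pairs and 2 factors, had adjusted p-values of 0.850 to 0.905 (permutation), where 0.005 was the smallest p possible. The constitutive partners also had higher means: Psmb5, Psmb6 and Psmb7 had log2 differences of 0.14, 0.29 and 0.18 in cKO against WT on vehicle.

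**Figure D3:**
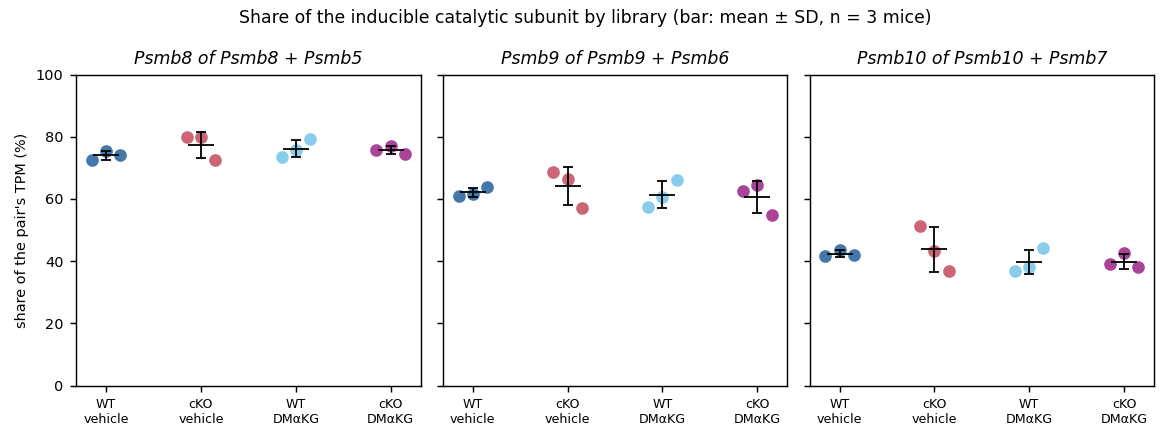
Share of the inducible subunit in the summed TPM of each inducible and constitutive pair (vertical axis, percent) by group (horizontal axis); points are single mice and bars the mean ± SD of 3 mice. The Psmb8 share lies between 72.5% and 79.9% in all 12 libraries, and the groups overlap in all 3 pairs.

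Across the 12 libraries the members fell into loose sets, described here by Pearson correlations of log2 CPM over libraries that share 4 groups. Tap1 and Tap2 had r = 0.893, Tap2 and Tapbp 0.885, Psmb8 and Psmb9 0.884, and H2-K1 and H2-D1 0.786. Psmb9 and Tap1, which share a promoter, had r = 0.815, and Psmb9 and Psmb10, on different chromosomes, had r = 0.803. Taken relative to the group means, these 2 pairs stood at 0.634 and 0.622. The part of the shared promoter was not tested. Nlrc5 had r = 0.762 with H2-K1 and 0.754 with H2-D1, and 0.267 with Psmb8. B2m stood apart from its partners, with r = 0.536 to H2-K1, 0.05 to H2-D1 and -0.779 to Tapbp. On the mean standardized level of the 10 genes, cKO vehicle 2 (1.19) and cKO vehicle 3 (0.80) ranked highest, followed by the 3 cKO DMαKG libraries. WT vehicle 3 ranked lowest (-0.93), and cKO vehicle 4 (-0.28) ranked ninth of the 12.

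Transcript length moved with part of this pattern. The index was the median log2 level of short transcripts (under 1000 bases) minus that of long ones (over 3000 bases), each relative to its own mean. It ran from -0.24 to 0.51 and was highest in cKO DMαKG 3 (0.51) and cKO vehicle 4 (0.26). B2m (809 bases) had r = 0.751 with this index over the 12 libraries and Psmb10 (1221 bases) r = 0.606, whereas Tapbp (2699 bases) had r = -0.653 and Tap2 (2441 bases) r = -0.642. The high B2m and low Tap2 and Tapbp values of cKO DMαKG 3 thus sat in the library with the highest index. With the length trend removed, the B2m difference between DMαKG and vehicle in cKO Tregs was 0.26 in place of 0.41. Psmb9 (813 bases), one of the shortest members, had r = 0.238. The part of length in these values was otherwise not tested.

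**Figure D4:**
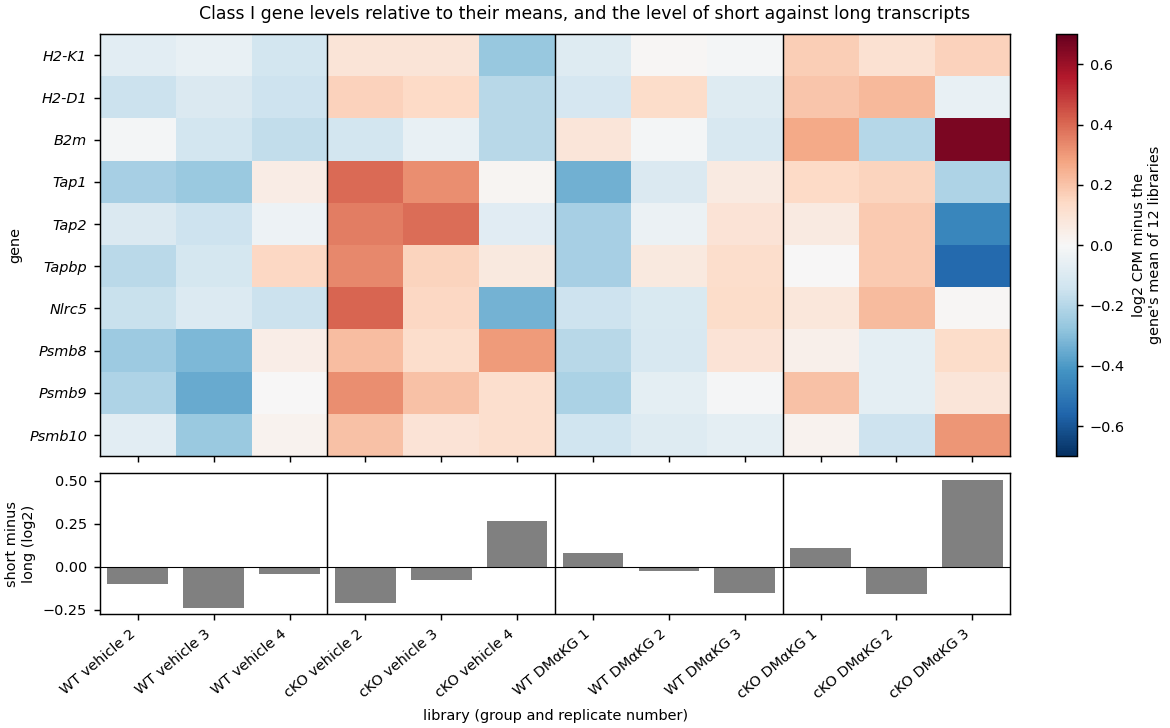
Upper panel, log2 CPM of each class I gene (vertical axis) in each library (horizontal axis) relative to that gene's mean over the 12 libraries, in colour (red above, blue below). Lower panel, the short minus long transcript index of the same libraries (log2), which is highest at 0.51 in cKO DMαKG 3, where B2m is highest and Tap2 and Tapbp are lowest.

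Some of these counts were divided between genes. The estimated counts of Tap1 and of Tap2 were not whole numbers in any of the 12 libraries, but their sum was whole in all 12 (within 0.006), that is, their fractions added up. Summed, the pair stood at 617, 603 and 703 CPM in WT vehicle and 905, 889 and 683 CPM in cKO vehicle 2, 3 and 4, and the log2 difference was 0.36 (SE 0.16, edgeR adjusted p = 0.651). H2-K1, H2-D1 and Tapbp also had no whole count in any library. Stretches of 75 bases of H2-K1 transcripts were found in other genes' transcripts in 1.12% of positions, and those of H2-D1 in 6.15%, mostly among class I genes of the Q and T regions. Such stretches made up 1.36% of positions in Tapbp and 0% in Tap1 and Tap2. How the reads of Tap1 and Tap2 came to be divided was not tested. Since their counts were not whole, values of these 5 genes are uncertain as to the exact gene. All 18 MHC-linked class I chains summed as 1 row stood 0.14 higher in cKO on vehicle (SE 0.15) and 0.23 higher on DMαKG (SE 0.15), with edgeR adjusted p-values of 0.936 and 0.618. H2-K1 and H2-D1 made up 62.3% to 68.4% of the TPM of all these chains. In the GENCODE gene models, which differ from the RefSeq ones given above, B2m overlaps Patl2 on the opposite strand, Tap1 overlaps Psmb9 and Tapbp overlaps Zbtb22, and the use of strand in counting is not stated in the labels.

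The class I genes were set beside other genes of the pathway, described by counts and medians. The nonclassical and other MHC-linked class I chains had a higher mean in cKO for 12 of 14 tested genes on vehicle (median 0.19) and for 12 of 14 on DMαKG (median 0.30). None was called by edgeR or DESeq2 in either comparison, and 0 and 3 had an unadjusted edgeR p below 0.05, against 7.40% and 10.5% of all genes. Averaged over treatments 13 of the 14 had a higher mean in cKO (median 0.23), where 48.9% of all genes did. On DMαKG 7 of the 14 were apart in the higher direction, against 7.92% of all genes. H2-Q4 was one of these, with 713, 801 and 717 CPM in WT DMαKG and 953, 1080 and 983 CPM in cKO DMαKG, a log2 difference of 0.43 (edgeR adjusted p = 0.412). H2-Q6 stood at 657, 781 and 692 CPM against 1060, 1060 and 1040 CPM (log2 difference 0.57, edgeR adjusted p = 0.521). Sequence shared among these chains was not measured, and the division of reads among them is uncertain.

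Proteasome genes outside the inducible subunits mostly had higher means in cKO as well. Their medians lay below that of the class I genes on vehicle (0.24). On DMαKG the other 20S subunits (0.20) and the 3 constitutive catalytic subunits (0.16) lay above the class I median (0.15). Averaged over treatments these 2 lists had positive differences in 11 of 11 and 3 of 3 genes. Their medians there were 0.175 and 0.172, beside 0.181 for the class I genes. The 11 other subunits of the 20S core had positive differences in cKO on vehicle (11 of 11, median 0.13) and on DMαKG (11 of 11, median 0.20), the 20 subunits of the 19S particle a median of 0.06 and 0.08, and the 9 activators and assembly factors a median of 0.19 and 0.13, with 0 called in edgeR or DESeq2. At an unadjusted edgeR p below 0.05 the counts on vehicle and on DMαKG were 0 and 0 for the core, 1 and 1 for the 19S particle and 2 and 1 for activators and assembly, against the same 7.40% and 10.5% of all genes. Psme2, a subunit of the interferon-inducible activator cap, stood at 198, 197 and 188 CPM in WT DMαKG and 267, 199 and 280 CPM in cKO DMαKG (log2 difference 0.35, edgeR adjusted p = 0.429). The 9 loading and trimming factors of the endoplasmic reticulum, with Hspa5, Calr, Pdia3 and Canx the most abundant, had medians of 0.04 and 0.08. Cytosolic peptidases (6 tested) had a median of 0.11 on vehicle and 0.01 on DMαKG, and class I-like genes outside the MHC (4 tested) -0.34 and -0.06. In these 3 lists 0 were called by edgeR or DESeq2, and 1 loading factor and 1 peptidase on vehicle had an unadjusted edgeR p below 0.05.

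Interferon-stimulated genes outside the class I pathway had mostly higher means in cKO on vehicle and mostly lower ones on DMαKG, where the class I genes were mostly higher. On vehicle 26 of 42 had a higher mean in cKO (median 0.11), but on DMαKG 8 of 42 did (median -0.25), and in both genotypes 39 of 42 had a lower mean on DMαKG than on vehicle (median -0.17 in WT and -0.45 in cKO). In cKO Tregs 25 of the 42 had an unadjusted p below 0.05 in the lower direction (9.93% of all genes), 23 were apart (12.2% of all genes), and edgeR called none, where DESeq2 called 11, all lower. Over the class I genes in the same comparison 0 of 10 were apart in the lower direction. Averaged over treatments 31 of the 42 had a lower mean in cKO (median -0.09), and DESeq2 called 1 higher and 2 lower. The 1 edgeR call was Gbp2. This gene, which encodes an interferon-inducible GTPase, was higher in cKO (log2 0.76, SE 0.14, edgeR adjusted p = 0.0305). Its adjusted p ran from 1.35e-04 to 0.111 over the alternatives, and 11 of 20 kept the call; it was lost with the replicate block, without the 3 libraries at the end of the first component, and without any 1 of WT vehicle 2 or 3, cKO vehicle 2 or 3 and WT DMαKG 1, 2 or 3.

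Of 20 regulators, transcription factors that act at class I promoters plus the cytokine signalling suppressor Socs1, 13 had a higher mean in cKO on vehicle (median 0.09) and 7 on DMαKG (median -0.12). None was called by edgeR or DESeq2 in either comparison, and 4 and 2 had an unadjusted edgeR p below 0.05, against 7.40% and 10.5% of all genes. On DMαKG 1 of the 20 was apart in the higher direction (7.92% of all genes) and 2 in the lower. The former, Irf1, an interferon-induced activator, stood at 363, 411 and 238 CPM in WT and 479, 508 and 566 CPM in cKO (log2 difference 0.62, edgeR adjusted p = 0.419). On vehicle Irf1 overlapped, at 306, 296 and 228 CPM in WT and 402, 463 and 217 CPM in cKO. In cKO Tregs 15 of the 20 had a lower mean on DMαKG than on vehicle (median -0.20). There 7 had an unadjusted edgeR p below 0.05 in the lower direction (9.93% of all genes) and 8 were apart lower (12.2%). DESeq2 called 1 of them, lower, and edgeR none. In cKO against WT the 7 interferon receptors and kinases and the cytokine gene Ifng together had medians of -0.03 on vehicle and -0.00 on DMαKG. None of these 8 was called by edgeR. Ifng had the largest difference of this list, with 14.3, 16.3 and 5.56 CPM in WT vehicle and 3.90, 6.04 and 1.34 CPM in cKO vehicle (log2 -1.68, edgeR adjusted p = 0.379), and -1.13 on DMαKG (edgeR adjusted p = 0.436). Those 2 differences were the only ones of the list with an unadjusted p below 0.05 in the pairwise genotype comparisons, and DESeq2 called 1 of the 8, lower, in the average over treatments. MHC class II genes, which antigen-presenting cells use to show peptides to CD4 T cells, had higher means in cKO on DMαKG for 10 of 10 genes (median 0.85) and on vehicle for 3 of 10 (median -0.22). H2-Aa, a classical class II chain, stood at 16.9, 23.8 and 9.44 CPM in WT DMαKG and 14.8, 12.2 and 60.6 CPM in cKO DMαKG, so that only cKO DMαKG 3 lay above the WT range. H2-Ab1, its partner chain, also lay above the WT range only in cKO DMαKG 3, with 10.7, 15.7 and 8.22 against 9.78, 11.1 and 34.7 CPM. On DMαKG edgeR called none, DESeq2 called 1, and 5 had an unadjusted edgeR p below 0.05 in the higher direction (5.56% of all genes). For 4 of the 10 all cKO DMαKG libraries lay above all WT DMαKG libraries, against 7.92% of all genes. Cd74, the most abundant of the list, was one of these, at 55.7, 81.4 and 49.7 CPM in WT and 135, 110 and 124 CPM in cKO. H2-Oa, a class II chaperone chain, was higher in cKO averaged over treatments (log2 0.69, SE 0.13, edgeR adjusted p = 0.0319, 4.94e-04 to 0.136 over the alternatives, of which 9 of 20 kept the call). The call was lost with the replicate block, without the 3 libraries at the end of the first component, and without any 1 of WT vehicle 2, 3 or 4, cKO vehicle 2 or 3, WT DMαKG 1, 2 or 3 and cKO DMαKG 1. Summed B cell markers stood at 18.2 to 43.0 CPM in cKO DMαKG and 15.7 to 21.3 CPM in WT DMαKG mice, and summed macrophage, monocyte and granulocyte markers at 75.1 to 214 and 50.1 to 167 CPM. Their part in the class II values was not tested.

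**Figure D5:**
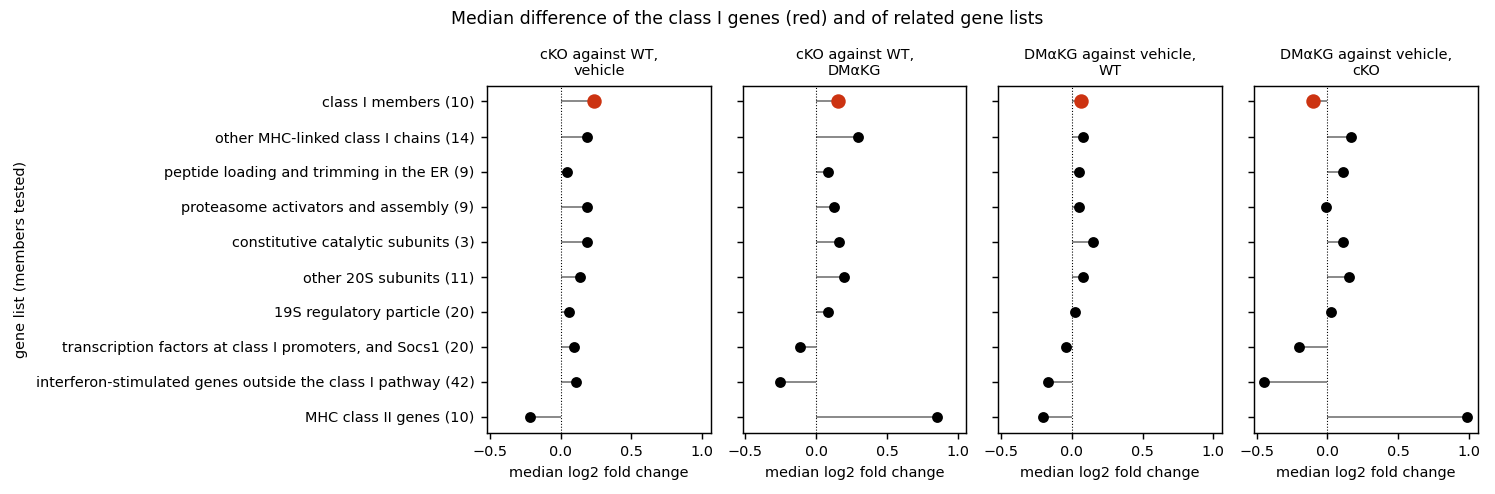
Median log2 fold change (horizontal axis) of the 10 class I genes (red) and of 9 related gene lists (black, members tested in parentheses) in the 4 pairwise comparisons. In cKO Tregs on DMαKG against vehicle the class I median is -0.10, between interferon-stimulated genes at -0.45 and class II genes at 0.99.

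Among the 9814 other tested genes with a mean of at least 5 CPM, 7 of the 8 whose log2 CPM followed the mean standardized level of the 10 class I genes most closely over the 12 libraries were Tapbpl (r = 0.902), Ppp1r16a (0.899), Grina (0.896), Pld3 (0.892), Eno2 (0.888), Baiap3 (0.886) and Gbp5 (0.882). Tapbpl encodes a tapasin-related class I chaperone and was in the loading list, and Gbp5 was in the interferon list. Tapbpl stood at 73.9, 70.1 and 83.7 CPM in WT vehicle and 109, 101 and 76.2 CPM in cKO vehicle 2, 3 and 4. Like Tap1, it lay within the WT range in cKO mouse 4, where the heavy chains were below it. Since these genes were picked for following the members over the same libraries, a shared pattern follows from the choice.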

How the data were processed

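RNA of sorted Tregs was sequenced in 12 libraries, 3 mice in each of 4 groups, per the series' design text and the labels. RNA was extracted with Trizol, per the labels' protocols, and NEBNext Ultra libraries were run on an Illumina sequencer, per the design text. Per the submitters' processing notes, the build was mm10 and the tools, without stated roles, were DESeq2 1.16.1, HISAT2 2.0.5 and featureCounts 1.5.0-p3. The authors deposited 1 table of estimated counts, FPKM and TPM per gene and library. The deposited FPKM values, per length and per library, were not used. The deposited TPM values, per length with 1 fixed sum for all libraries, served for levels between genes and for shares. Of the estimated counts 36.0% were not whole, and they were rounded before the count tests, which had been planned for whole counts. Gene IDs of the table matched a RefSeq gene table in 17901 of 17955 cases.

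The main tests used edgeR 4.0.16 under R 4.3.3 (quasi-likelihood, filterByExpr, TMM scaling, 1 mean per group, 8 residual degrees of freedom, biological coefficient of variation 19.7%). Benjamini-Hochberg adjustment ran over all 12903 tested genes of a comparison, with a threshold of 0.05. CPM values use TMM-scaled library sizes. The 6 share tests were two-sided exact permutation tests. Fits were tested on simulated data. The members and the gene lists were chosen with earlier results of these data known, so counts over them are descriptions. All 10 members are named. Other lists give members past the threshold, otherwise up to 4 of the most abundant. H2-Q4, H2-Q6, Psme2, Irf1 and Cd74 were picked among these after their values were seen.

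Alternatives were DESeq2 size factors, no low-count filter, the Wald test of DESeq2 1.42.0, a replicate block, a fit on only the groups compared, and leaving out each library. Chosen after seeing the data were a robust prior, a per-library correction for transcript length, a covariate of Y-linked expression, leaving out 3 libraries at the end of the first principal component, and summed rows. The promoter search, the overlaps and the repeated stretches used RefSeq and GENCODE annotation of GRCm38. Results for some genes are not reported here.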

Additional observations from a re-analysis of the deposited data

How the results depend on the processing

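The limits come first. Each group held 3 mice, and in the 4 pairwise comparisons the 95% intervals of members reached 0.26 to 0.39 to either side of the log2 estimate (median 0.32). The adjusted test needs more than that, since Psmb9, Psmb8 and Tap1 on vehicle had differences larger than their half-widths and were not called. No member was called in any of the 7 comparisons under any alternative (lowest adjusted p 0.0618, Psmb9 by DESeq2, averaged over treatments). In cKO against WT averaged over treatments 0 of 200 member values changed sign. The cause of the sign changes below was not tested.

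Counts of called genes over the whole table depended on the setting more than the member values did. For cKO against WT on vehicle the count was 3, and it was 9 with no low-count filter, 100 by DESeq2, 1 with the replicate block, 0 on only the groups compared, 8 with a robust prior and 5 with the length trend removed. For cKO against WT on DMαKG it was 9, and in the same order 26, 143, 0, 3, 24 and 15, with 2 under the Y-linked covariate and 1 without the 3 libraries at the end of the first component. For DMαKG in WT it was 0, and 2 by DESeq2. For DMαKG in cKO it was 0, and 4 with no filter, 389 by DESeq2, 4 on only the groups compared and 13 without the 3 libraries. The interaction gave 0, and 1 by DESeq2. Averaged over treatments, genotype gave 126, and 398 by DESeq2, 12 with the block and 67 without the 3 libraries. Averaged over genotypes, DMαKG gave 1, and 2 with no filter, 331 by DESeq2, 0 with the block, 0 with the length trend removed and 159 without the 3 libraries. The median of the 10 members in cKO against WT on vehicle was 0.395 without the 3 libraries.

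The following log2 differences of members had the other sign than in the analysis reported above. For DMαKG in WT, Psmb10 was 0.003 with DESeq2 size factors, 0.003 by the DESeq2 test and 0.001 on only the groups compared. With the replicate block Tap2 was -0.009 in cKO against WT on DMαKG. For DMαKG in WT under the block, H2-K1 was -0.011, Tap2 -0.009 and Psmb10 0.045. For DMαKG in cKO under the block, Nlrc5 was -0.047, and averaged over genotypes Nlrc5 was -0.013, Psmb8 0.07 and Psmb10 0.011. With the Y-linked covariate B2m was 0.081 in cKO against WT on vehicle and Tapbp 0.022 on DMαKG, and for DMαKG in WT Tap1 was -0.017, Tap2 -0.006 and Tapbp -0.014. Without the 3 libraries, for DMαKG in WT Tap2 was -0.005 and Psmb10 0.052, for DMαKG in cKO H2-D1 was -0.008 and Nlrc5 -0.164, and averaged over genotypes Nlrc5 was -0.08 and Psmb8 0.009.

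Whether the replicate numbers paired mice could not be told from these data. Libraries of the same number had correlations of -0.28 to 0.466 in their deviations from the group means, and a library correlated best with its own number in 4 of 10 cases. In the DMαKG comparisons it did so for number 2 in WT (0.234) and numbers 2 and 3 in cKO (0.223 and 0.0188). For number 3 in WT it did not (-0.217). With 3 mice per group such correlations cannot decide the question. The replicate block tests only a shared number.

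Leaving out 1 library at a time gave 1 to 6 called genes for cKO against WT on vehicle, 0 to 17 on DMαKG, 0 to 112 for DMαKG in cKO, 48 to 148 for genotype averaged over treatments and 0 to 608 for DMαKG averaged over genotypes, with 112 and 608 both reached without WT DMαKG 3. Among members, on vehicle cKO against WT ran from -0.061 to 0.028 for B2m and from 0 to 0.173 for H2-K1, and on DMαKG from -0.103 to 0.183 for Tap2 and -0.222 to 0.107 for Tapbp. DMαKG in WT ran from -0.073 to 0.131 for Tap1, -0.039 to 0.117 for Tap2, -0.03 to 0.148 for Tapbp and -0.076 to 0.063 for Psmb10. DMαKG in cKO ran from -0.021 to 0.173 for H2-D1, -0.178 to 0.179 for Nlrc5 and -0.193 to 0.055 for Psmb10. The interaction ran from -0.128 to 0.077 for H2-D1, -0.276 to 0.081 for Nlrc5 and -0.188 to 0.059 for Psmb10. DMαKG averaged over genotypes ran from -0.04 to 0.139 for Nlrc5, -0.082 to 0.021 for Psmb8, -0.068 to 0.022 for Psmb9 and -0.099 to 0.025 for Psmb10. In percentage points, the Psmb8 share difference for DMαKG ran from -1.04 to 0.866, and the genotype difference from -0.562 to 2.35 for the Psmb9 share and from -1.1 to 2.48 for the Psmb10 share.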
